A study of Mus musculus with 17 samples.

Results

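The comparison described here asks how the lungs of tumor-bearing mice differed from those of tumor-free mice when both had been given the same myeloid cell therapy. It rests on 8 of the 17 RNA-seq libraries of a mouse study: 4 lung libraries from mice with an M3-9-M tumor that received IL12-GEMys (called tumor GEMy 1 to 4 below) and 4 from naive mice that received IL12-GEMys without a tumor (naive GEMy 1 to 4). The libraries were chosen by their labels alone. M3-9-M is a mouse rhabdomyosarcoma line, here carrying firefly luciferase and mCherry, and 500000 of its cells were placed in the gastrocnemius muscle of C57BL/6 mice. IL12-GEMys are myeloid cells engineered to secrete interleukin-12, and 8000000 were given into a vein on day 12 after the tumor cells. The labels place lung collection 3 days after the therapy, on day 15 of tumor growth. Sex and age are not given in the labels used here. The other lung libraries, 4 from naive and 4 from tumor-bearing mice without therapy, serve only to test where the tumor effect differed with therapy, and 1 library of the injected cell product was kept out of every test.

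Tumors growing outside the lung are known to change it before any metastasis is seen: neutrophils and other myeloid cells accumulate, and lymphocyte defence can weaken. Interleukin-12 is a cytokine that drives natural killer cells and T cells to make interferon-gamma. Interferon-gamma in turn switches on antigen presentation, guanylate-binding proteins and the chemokines that draw T cells. Both groups compared here had received that stimulus, so the contrast shows how tumor-bearing and tumor-free lungs differed 3 days after it. In the tumor-bearing mice the tumor had been growing for 12 days before the therapy was given.

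Values are FPKM, fragments per kilobase of a gene's genomic span, scaled to library size, and differences are tumor GEMy minus naive GEMy on the log2(FPKM + 0.5) scale, which understates the change of weakly expressed genes. Genes entered the test at 0.5 FPKM in at least 4 lungs, so a gene near 0 in tumor-free lungs could enter only through tumor-bearing ones. Each difference is given with its standard error and the Benjamini-Hochberg adjusted p of a limma fit over all 16 lungs, and a gene is called higher or lower where that p is below 0.05. The interaction is the tumor effect in treated lungs minus that in untreated lungs. The libraries of each group are replicates by their labels, and nothing says that each came from a separate mouse, so each p-value speaks only of library-to-library spread, which may be technical. In whole lung, fewer cells of a type and less RNA per cell cannot be told apart. The tumor GEMy libraries all carry the number 2 in their descriptions, and the untreated tumor libraries all the number 1. What that number marks is not stated, and it cannot be told apart from the therapy.

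The lung libraries held 27566657 to 36814791 reads. Lung markers were high in all 8, with Scgb1a1, a club cell secretory protein, at 5274 to 6950 FPKM and Sftpc, surfactant protein C, at 3479 to 5087 FPKM. Log2 values of replicate libraries correlated across genes at 0.992 to 0.996 in naive GEMy and at 0.985 to 0.994 in tumor GEMy lungs. Hemoglobin reads set 2 libraries apart. They made up 2.08% and 2.41% of the reads of tumor GEMy 1 and 2, but 0.306% and 0.484% of tumor GEMy 3 and 4 and 0.244%, 0.121%, 0.1% and 0.335% of naive GEMy 1 to 4. The group means were 1.32% ± 1.08 and 0.2% ± 0.11 (SD, n = 4 each, exact permutation p = 0.0571, 2-sided, where the smallest possible is 0.0286). Counts below are therefore also given without tumor GEMy 1 and 2, a choice made after the data were seen, and with the hemoglobin share as a covariate.

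Among 10284 genes tested, 414 (4.03%) were higher and 943 (9.17%) lower in the lungs of treated tumor-bearing mice. Most changes were small: 67 of the higher and 2 of the lower genes differed at least 2-fold. Higher genes were fewer than lower ones here, but 543 were higher and 396 lower under median-of-ratios scaling, and 527 higher and 658 lower after quantile normalization. The median difference over all genes was -0.051, 0.004 and -0.020 under the FPKM scale and these 2 scalings. Without tumor GEMy 1 and 2 the counts were 168 higher and 210 lower, and with the hemoglobin covariate 101 and 43. Leaving out naive GEMy 1 gave 272 higher and 369 lower, and leaving out naive GEMy 2 gave 270 and 529. Fewer lower genes were also called without naive GEMy 3 (569), tumor GEMy 1 (489), tumor GEMy 2 (575) or tumor GEMy 4 (576).

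The same tumor contrast in untreated lungs, which shares no library with this one, called 1733 genes (16.9%) higher and 2797 (27.2%) lower, 44.0% of the genes tested in all. Of the genes higher in treated lungs, 366 were also higher in untreated lungs, which is 88.4% of the treated list and 21.1% of the untreated list. For the lower genes the shared count was 665, or 70.5% and 23.8%. Across genes, which are not independent replicates, the 2 sets of log2 differences correlated with a Pearson r of 0.76 and a Spearman rho of 0.67. The difference between the 2 tumor effects passed the interaction test for 644 genes (6.26%). For 537 of them (5.22%) the tumor effect was lower in treated lungs, and 520 of these were called higher in untreated lungs. The other 107 (1.04%) had a higher effect in treated lungs, of which 98 were called lower in untreated lungs and 9 were called higher in treated lungs. The interaction count moved by over 1.5 times without some single libraries of 3 groups: it was 384 and 407 without naive untreated 1 or 2, 423 and 383 without naive GEMy 1 or 4, and 1256 and 385 without tumor untreated 1 or 3. Without 1 tumor GEMy library it was 467 to 597.

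**Figure D1:**
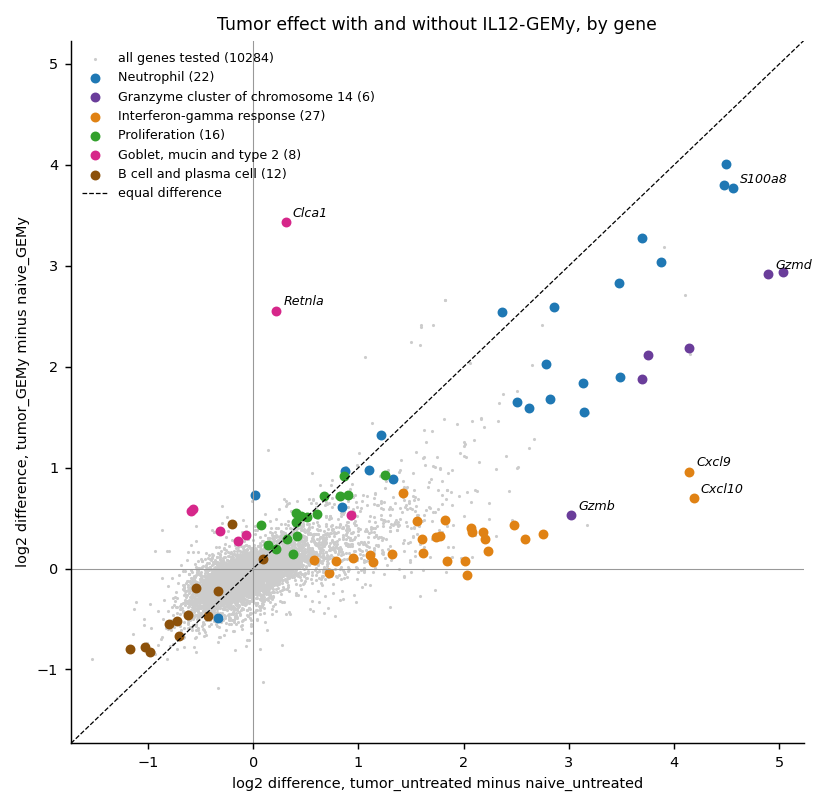
Each point is 1 of the 10284 genes tested, placed by its tumor effect in IL12-GEMy treated lungs and by its tumor effect in untreated lungs, both as log2 differences, with genes of 6 lists in colour. The effects correlated at r = 0.76 across genes, and Retnla and Clca1 lie apart with high treated and near-zero untreated values.

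Neutrophil genes made up most of the largest rises. These cells carry the calprotectin subunits S100A8 and S100A9, and of a list of 22 neutrophil genes 19 were higher and 1 was lower, with a median log2 difference of 1.76 against -0.05 over all genes. In 19 of the 22 all 4 tumor GEMy libraries lay above all 4 naive GEMy libraries, against 5.91% of all genes. The list includes members such as Trem1, at 0.28 to 0.416 FPKM in tumor-free lungs, that reached the minimum level only through tumor-bearing lungs. Such genes could enter only if they rose with a tumor, and their number was not counted. The share of all genes is therefore not a like-for-like baseline. S100a8 (chr3:90669071-90670034, plus strand, mm10) read 1046, 419, 362 and 385 FPKM in tumor GEMy 1 to 4 and 22.7, 38.6, 51.5 and 37.2 FPKM in naive GEMy 1 to 4. The groups were far apart, and tumor GEMy 1 was well above the other tumor GEMy libraries. The log2 difference was 3.77 ± 0.32 (SE, limma adjusted p = 3.86e-06). In untreated lungs S100a8 stood at 38 ± 8.51 FPKM without and 914 ± 259 FPKM with a tumor (SD, n = 4 each), and the interaction of -0.79 did not pass (limma adjusted p = 0.348).

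Its partner S100a9 (chr3:90692630-90695721, minus strand) read 631, 272, 209 and 251 FPKM in tumor GEMy 1 to 4 against 15.6 to 29.6 FPKM in naive GEMy lungs, a log2 difference of 3.80 ± 0.29 (limma adjusted p = 1.67e-06). Both genes were also abundant in the injected product, at 493 and 249 FPKM, and both groups received that product. Retnlg, a resistin-like protein of neutrophils, was 205, 65.9, 71.8 and 69.3 FPKM in tumor GEMy 1 to 4 and 4.66 to 5.45 FPKM in naive GEMy lungs, and only 0.119 FPKM in the product. It showed the largest named rise, 4.01 ± 0.32 (limma adjusted p = 2.32e-06). Again the groups did not overlap and tumor GEMy 1 was highest.

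Surface markers and receptors of mature neutrophils moved with these genes. Cxcr2, the receptor for neutrophil-attracting chemokines, read 26.6, 15.1, 9.8 and 20.6 FPKM in tumor GEMy 1 to 4 against 1.48, 1.82, 1.26 and 2 FPKM in naive GEMy 1 to 4 (log2 difference 3.04 ± 0.23, limma adjusted p = 1.67e-06). Ly6g, the antigen used to identify mouse neutrophils, read 10.5, 3.31, 2.79 and 3.2 FPKM against 0.104 to 0.236 FPKM (2.83 ± 0.29, limma adjusted p = 2.69e-05). Every tumor GEMy library was above every naive GEMy library for both. Ly6g reached the minimum level only through tumor-bearing lungs, so it could enter the test only by rising with a tumor. Proteases followed, with Mmp8, neutrophil collagenase, up by 3.27 and Mmp9, gelatinase B, up by 2.59 (limma adjusted p = 6.42e-05 and 0.000143). Asprv1, a protease also expressed by neutrophils, rose by 3.19 (limma adjusted p = 1.26e-05).

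For some myeloid genes the tumor effect was smaller in treated than in untreated lungs. Slfn4, an interferon-inducible schlafen outside the list, rose by 2.71 ± 0.18 in treated and by 4.10 in untreated lungs (interaction -1.40, limma adjusted p = 0.0054). Trem1, an amplifying receptor, rose by 1.59 and 2.62 (interaction -1.03, limma adjusted p = 0.0475), and Csf3r, the receptor for granulocyte colony-stimulating factor, by 1.68 and 2.82 (interaction -1.13, limma adjusted p = 0.0124). In all, 7 of the 22 list members passed the interaction test with a lower effect in treated lungs (Acod1, Clec4d, Clec4e, Csf3r, Il1b, Stfa2l1 and Trem1), and none with a higher one. G0s2, a lipolysis inhibitor also expressed outside neutrophils, was the 1 member that fell, by 0.49 (limma adjusted p = 0.0116). The secondary granule genes Camp and Ltf, at 1.32 and 0.73, did not pass (limma adjusted p = 0.0859 and 0.197).

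Beside the hemoglobin shares, the neutrophil list's median level over its members, relative to naive GEMy lungs, was 2.39, 1.67, 1.21 and 1.87 in tumor GEMy 1 to 4, which had 2.08%, 2.41%, 0.306% and 0.484% hemoglobin reads. It was -0.05, -0.08, 0.06 and 0.15 in naive untreated 1 to 4, which had 0.734%, 1.51%, 0.33% and 0.19%. The part of blood content in the list level was not tested. Without tumor GEMy 1 and 2 the list had 17 higher members and a median of 1.58, and with the hemoglobin covariate 15 members were higher.

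**Figure D2:**
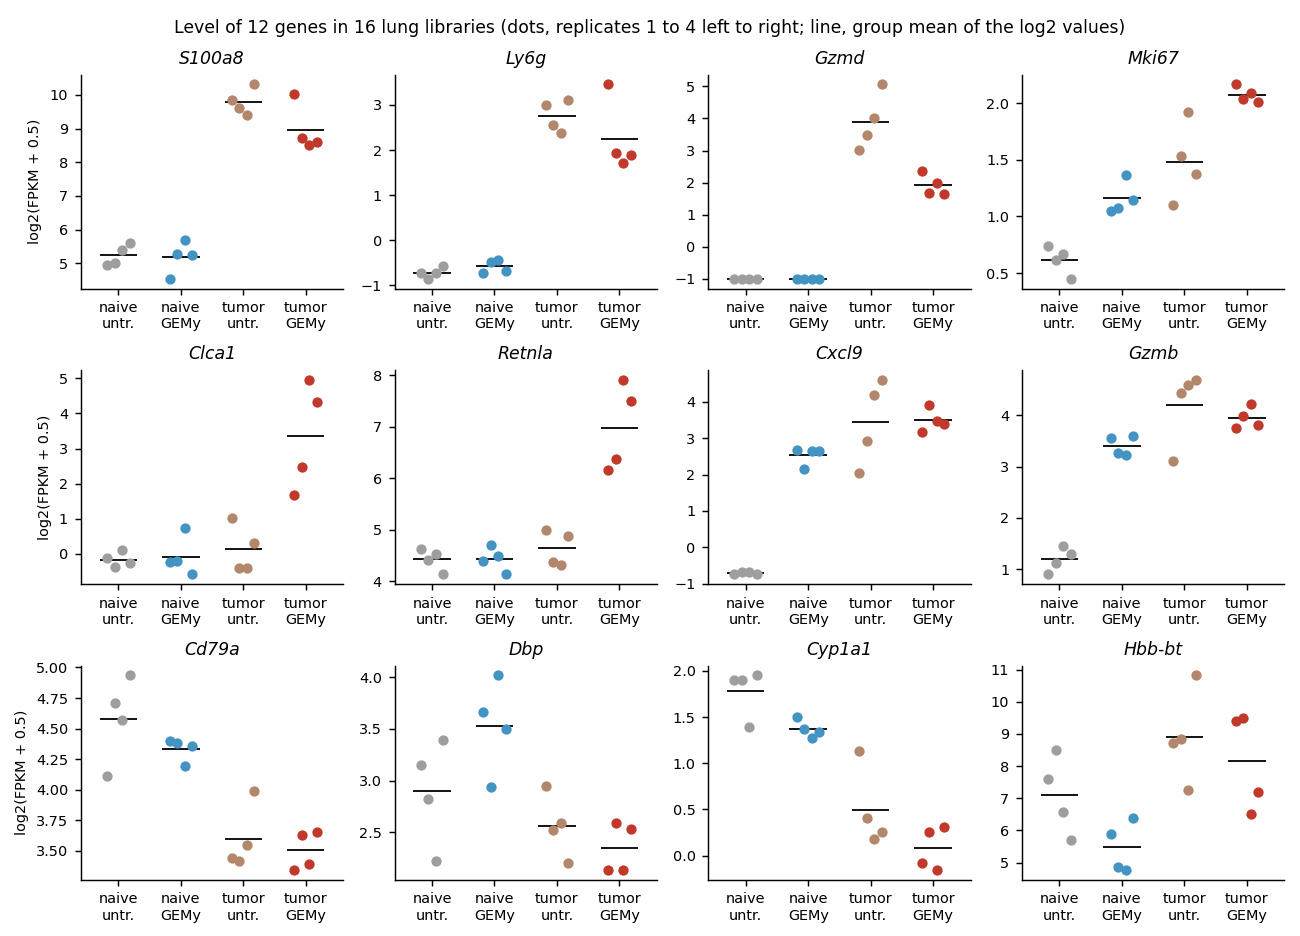
FPKM of 12 genes in the 16 lung libraries, on a log2(FPKM + 0.5) axis, with 1 point per library in each of the 4 groups. S100a8, Ly6g, Gzmd and Mki67 separate tumor GEMy from naive GEMy lungs completely, Cxcl9 and Gzmb stand higher in naive GEMy than in naive untreated lungs, and Clca1 and Retnla are highest in tumor GEMy lungs.

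The promoters of these genes are shown to set the rises beside the sequence next to them. The 250 bases before the RefSeq start (GRCm38.p6) were searched on both strands for TTGCNNAA, a C/EBP-type core found in 9.56% of 32851 such promoters, for TTCNNNGAA, the interferon-gamma activated site (7.02%), for TTCNNNNGAA, a STAT6-type spacing (5.85%), and for GAAANNGAAA, an interferon-stimulated element (2.98%). The spacing motifs can overlap each other. S100a9 (chr3:90695722-90695971, minus strand) held 1 match, to the C/EBP-type core, from 236 to 229 bases upstream and in capitals here, and the S100a8 window held none of the letters searched. A match describes letters only.
S100a9: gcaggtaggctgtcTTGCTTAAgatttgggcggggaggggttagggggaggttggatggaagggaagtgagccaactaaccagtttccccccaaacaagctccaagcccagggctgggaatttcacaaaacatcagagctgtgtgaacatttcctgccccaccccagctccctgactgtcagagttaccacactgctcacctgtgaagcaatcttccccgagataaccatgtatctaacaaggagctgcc

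Gzmd, Gzme, Gzmf and Gzmg, granzymes of the chromosome 14 cluster, had 0 reads in naive GEMy lungs and were expressed in all 4 tumor GEMy libraries. Granzymes are proteases that cytotoxic cells deliver into targets, and Gzmd to Gzmg are mouse genes expressed by strongly stimulated killer cells. Over 4 libraries Gzmd had 1347 reads in tumor GEMy and 0 in naive GEMy lungs, so it was at least 420-fold higher, counting 3 reads over the group as the floor. By the same floor Gzme was at least 216-fold, Gzmf at least 458-fold and Gzmg at least 428-fold higher. Gzmc had 643 reads against 14, a ratio of 43 after scaling to depth. These genes are near-identical copies, and how shared reads were assigned is not known, so the values of single members are uncertain.

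Gzmd (chr14:56129568-56132593, minus strand) read 4.6, 2.7, 3.49 and 2.62 FPKM in tumor GEMy 1 to 4, with a log2 difference of 2.92 ± 0.30 (limma adjusted p = 3.18e-05). Gzmg read 4.95, 2.84, 3.32 and 2.63 FPKM (2.94 ± 0.32, limma adjusted p = 6.42e-05). Both were at 0 FPKM in all naive GEMy and naive untreated libraries, and higher still in untreated tumor-bearing lungs, at 16.7 ± 11.4 and 18.8 ± 13.2 FPKM (SD, n = 4). The interactions were -1.98 and -2.09 (limma adjusted p = 0.0119 and 0.0136). Gzmc to Gzmg reached the minimum level only through tumor-bearing lungs, so they had to differ, and their number of calls is not given as a result. Gzmb, of the same cluster, was expressed in naive GEMy lungs at 11.3, 9.1, 8.8 and 11.6 FPKM and in tumor GEMy lungs at 13, 15.3, 18.1 and 13.5 FPKM. The groups did not overlap, but the log2 difference of 0.53 (95% interval -0.03 to 1.08) did not pass (limma adjusted p = 0.188), whereas a fit of the 8 libraries alone gave an adjusted p of 0.0207. In untreated lungs Gzmb was 1.8 ± 0.382 FPKM without and 19.6 ± 7.82 FPKM with a tumor (SD, n = 4 each), and the interaction was -2.49 (limma adjusted p = 0.00211).

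A few airway secretory and type 2 genes, led by Clca1 and Retnla, had a higher tumor effect in treated than in untreated lungs. Clca1 is a secreted protein of goblet cells that rises in mucous airways, and Retnla, also called RELM-alpha or FIZZ1, is made by epithelium and macrophages under interleukin-4 and interleukin-13. Of 20 genes on the list of goblet, mucin and type 2 genes 8 passed the minimum level, and 3 of these were higher and none lower, with a median of 0.55. In untreated lungs 1 was higher and 2 were lower, near the shares of all genes there (16.9% and 27.2%), and the median was -0.11. The interaction test was passed by 4 members, all with a higher effect in treated lungs, against 1.04% of all genes.

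Clca1 (chr3:145004537-145032776, minus strand) read 2.7, 5.03, 30.6 and 19.7 FPKM in tumor GEMy 1 to 4 and 0.355, 0.363, 1.16 and 0.168 FPKM in naive GEMy 1 to 4. All tumor GEMy libraries were above all naive ones, but they spread widely, with 3 and 4 the highest. The log2 difference was 3.43 ± 0.57 (95% interval 2.21 to 4.66, limma adjusted p = 0.00221), and 0.31 in untreated lungs (limma adjusted p = 0.688). The interaction of 3.13 passed (limma adjusted p = 0.0345), but not on the depth-scaled read scale (adjusted p = 0.0667), without a minimum level (0.0562), or in 11 of the leave-one-out fits over the 16 lungs. Those left out naive untreated 1, 2, 3 or 4, naive GEMy 1, 2 or 4, tumor untreated 2, 3 or 4, or tumor GEMy 4 and gave adjusted p of 0.0545 to 0.0794, with an interaction of 2.80 to 3.20.

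Retnla (chr16:48842609-48844461, plus strand) read 71.1, 83, 241 and 180 FPKM in tumor GEMy 1 to 4 and 20.6, 25.5, 22 and 17.3 FPKM in naive GEMy 1 to 4. Here too the groups were apart and tumor GEMy 3 and 4 were highest, the libraries with the lower hemoglobin shares. The difference was 2.55 ± 0.31 (limma adjusted p = 0.00012). Mean levels were 21.2 ± 3.12 FPKM in naive untreated, 25.1 ± 6.12 in tumor untreated, 21.4 ± 3.41 in naive GEMy and 144 ± 81.2 in tumor GEMy lungs (SD, n = 4 each), and the interaction was 2.33 (limma adjusted p = 0.00543). The product had 0 FPKM of both Retnla and Clca1. The window before Retnla (chr16:48842359-48842608, plus strand) held a STAT6-type match from 145 to 136 and a C/EBP-type match from 134 to 127 bases upstream, both in capitals.
Retnla: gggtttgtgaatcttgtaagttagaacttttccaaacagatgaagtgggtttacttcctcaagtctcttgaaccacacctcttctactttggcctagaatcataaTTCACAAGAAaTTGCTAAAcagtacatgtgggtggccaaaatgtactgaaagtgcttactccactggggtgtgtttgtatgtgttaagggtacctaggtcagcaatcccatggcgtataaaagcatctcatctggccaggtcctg

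Mucins shared the order of the libraries. Muc5b, the main mucin of resting airways, read 3.4, 3.81, 6.53 and 4.94 FPKM in tumor GEMy 1 to 4 against 2.35 to 3.59 FPKM in naive GEMy lungs, and the groups overlapped. Its difference of 0.59 passed (limma adjusted p = 0.0321) and its effect in untreated lungs was -0.57 (limma adjusted p = 0.0124). The interaction was 1.16 (limma adjusted p = 0.00916). The call in treated lungs was lost without naive GEMy 1 (adjusted p = 0.0971), naive GEMy 2 (0.0558), naive GEMy 4 (0.0727), tumor GEMy 3 (0.0779) or tumor GEMy 4 (0.0783). Tff2, a trefoil peptide secreted with mucins, stood at 0.57 (95% interval 0.14 to 1.01, limma adjusted p = 0.0746), with an interaction of 1.16 (limma adjusted p = 0.0263).

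Several members lay under the minimum level and were read only on the depth-scaled read scale, where 15422 genes were tested. Muc5ac, the inducible goblet cell mucin, was 0.169, 0.245, 0.877 and 0.75 FPKM in tumor GEMy 1 to 4 and 0.0785 to 0.114 FPKM in naive GEMy lungs, with a difference of 1.95 (limma adjusted p = 0.00515) and an interaction of 2.39 (limma adjusted p = 0.0155). Fcgbp, a protein bound to mucus, was 0.21, 0.298, 1.3 and 0.873 FPKM against 0.128 to 0.19 FPKM, a difference of 1.69 (limma adjusted p = 0.021). Both were again highest in tumor GEMy 3 and 4, with no overlap between groups. Agr2 and Spdef, which goblet cells use to fold and switch on mucins, did not pass there, at 0.94 and 0.24 (limma adjusted p = 0.0524 and 0.306). The cytokines themselves were near the floor: Il13 had 18 reads over the tumor GEMy libraries and 6 over the naive GEMy libraries, and Il5 had 30 and 20.

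The count of 3 higher members was 6 without tumor GEMy 1 and 2 and 4 with the hemoglobin covariate. It was 5 without tumor GEMy 1, and 2 without naive GEMy 1, naive GEMy 4, tumor GEMy 3 or tumor GEMy 4. Rasd1, a glucocorticoid-inducible small GTPase outside this list, was among the 5 largest interactions of this direction. It read 4.22, 4.22, 3.98 and 2.63 FPKM in tumor GEMy 1 to 4 against 1.16 to 1.86 FPKM in naive GEMy lungs (difference 1.17, limma adjusted p = 0.000343; interaction 1.03, limma adjusted p = 0.0126). The interaction did not pass without tumor GEMy 1 and 2 (adjusted p = 0.0684).

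**Figure D3:**
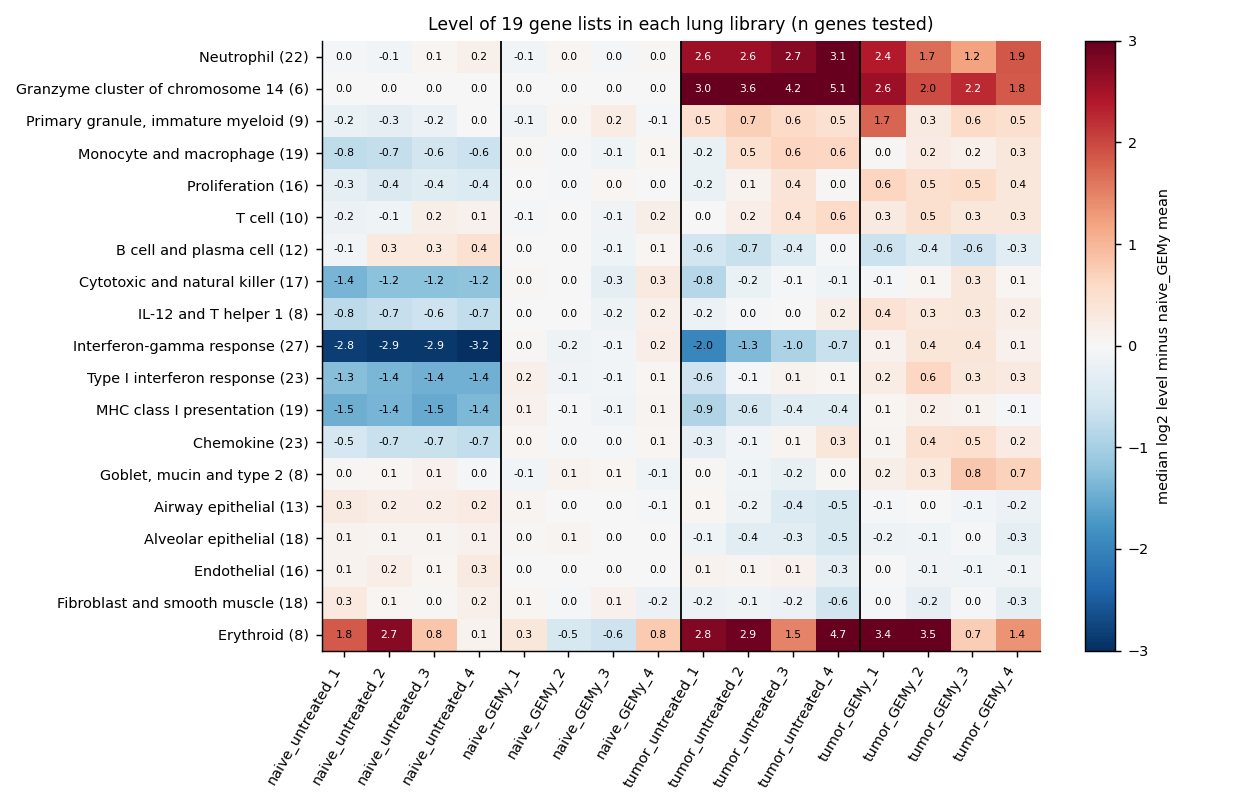
Heat map of 19 gene lists in the 16 lung libraries, where each cell is the median over the list's members of log2(FPKM + 0.5) minus the naive GEMy mean. The goblet and type 2 list is highest in tumor GEMy 3 and 4 (0.82 and 0.69), and the interferon-gamma list is lowest in naive untreated lungs (-2.82 to -3.24).

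Interferon-gamma response genes, which interleukin-12 raises through interferon-gamma, were high in both treated groups. Of 27 tested, 1 was higher in tumor GEMy lungs, with a median of 0.29, whereas all 27 were higher with a tumor in untreated lungs, with a median of 1.82. For 21 of them the tumor effect was lower in treated lungs by the interaction test. The list level relative to naive GEMy lungs was -2.82, -2.90, -2.90 and -3.24 in naive untreated lungs, -1.96, -1.33, -0.95 and -0.67 in tumor untreated lungs and 0.14, 0.37, 0.37 and 0.12 in tumor GEMy lungs. Upp1, uridine phosphorylase, was the 1 called member, at 0.75 (limma adjusted p = 0.0227), and it was not called without naive GEMy 3, tumor GEMy 1 or tumor GEMy 2.

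The chemokines that act on CXCR3, the receptor of activated T and natural killer cells, showed the largest negative interactions. Cxcl10 (chr5:92346639-92348889, minus strand) read 22.3, 40.8, 36.3 and 20.5 FPKM in tumor GEMy 1 to 4 and 22.8, 14, 16.5 and 18.1 FPKM in naive GEMy 1 to 4. Those values overlapped, and the difference of 0.69 (95% interval -0.13 to 1.52) did not pass (limma adjusted p = 0.247). In untreated lungs the mean was 0.601 ± 0.0594 FPKM without and 23.5 ± 14.9 FPKM with a tumor (SD, n = 4 each), and the interaction was -3.49 (limma adjusted p = 0.00288). The window before Cxcl10 (chr5:92348890-92349139, minus strand) held the interferon-stimulated element from 213 to 204 bases upstream, in capitals, while the window before Cxcl9 held none of the letters searched.
Cxcl10: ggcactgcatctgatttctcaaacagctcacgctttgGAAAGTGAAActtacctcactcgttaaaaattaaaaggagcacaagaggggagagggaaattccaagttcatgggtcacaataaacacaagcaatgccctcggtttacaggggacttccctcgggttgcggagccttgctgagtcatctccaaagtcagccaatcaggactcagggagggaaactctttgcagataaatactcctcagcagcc

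Cxcl9 read 8.59, 14.6, 10.6 and 10 FPKM in tumor GEMy 1 to 4 and 5.9, 3.96, 5.82 and 5.72 FPKM in naive GEMy 1 to 4. The groups were apart, but the difference of 0.96 (95% interval 0.13 to 1.80) did not pass over all genes (limma adjusted p = 0.114), while the fit of the 8 libraries alone gave an adjusted p of 0.00607 and the fit with array weights 0.0063. Its interaction was -3.18 (limma adjusted p = 0.00438). Untreated lungs stood at 0.112 ± 0.014 FPKM without and 13 ± 9.38 FPKM with a tumor (SD, n = 4 each).

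Genes of immune restraint and killing gave a like picture. Cd274, which encodes the checkpoint ligand PD-L1, was 26.2 ± 3.6 FPKM in naive GEMy and 28.4 ± 3.62 FPKM in tumor GEMy lungs (SD, n = 4 each; difference 0.12, 95% interval -0.47 to 0.71, limma adjusted p = 0.804), against 1.59 ± 0.173 and 8.15 ± 4.56 FPKM in untreated lungs. Prf1, the pore-forming protein perforin, was 10.8 ± 2.26 and 11.7 ± 2.03 FPKM (difference 0.12, 95% interval -0.36 to 0.60, limma adjusted p = 0.756). Their interactions were -1.77 and -1.56 (limma adjusted p = 0.0139 and 0.00936).

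Of 17 cytotoxic and natural killer genes none was called in treated lungs, with a median of 0.10, and all 17 were higher with a tumor in untreated lungs, 9 of them with a lower effect in treated lungs. By limma, none of the 19 genes of MHC class I presentation was called in treated lungs either, at a median of 0.08, against 18 higher in untreated lungs. No alternative listed for the lists gave a call among the MHC class I genes, and leaving out naive GEMy 4 gave 1 among the cytotoxic genes. Serpina3f, a serine protease inhibitor, and Tgtp1, an interferon-induced GTPase, completed the 5 largest negative interactions, at -2.41 and -2.29 (limma adjusted p = 0.00186 and 0.00376).

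A part of the type I interferon list did rise further. Of 23 genes 6 were higher and none lower, with a median of 0.34, and 11 had a smaller effect than in untreated lungs, where all 23 were higher. The 6 comprised the oligoadenylate synthetase genes Oas2, Oas3, Oasl1 and Oasl2, the antiviral gene Rsad2 and Ifi27l2a. Oas3 read 5.13, 3.87, 2.59 and 4.14 FPKM in tumor GEMy 1 to 4 against 1.67, 1.45, 1.11 and 1.87 FPKM in naive GEMy 1 to 4, without overlap (difference 1.11 ± 0.20, limma adjusted p = 0.00248; interaction -1.30, limma adjusted p = 0.0113). Rsad2 rose by 1.19 (limma adjusted p = 0.0152). Without tumor GEMy 1 and 2 the list had 1 higher member, and with the hemoglobin covariate 0.

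**Figure D4:**
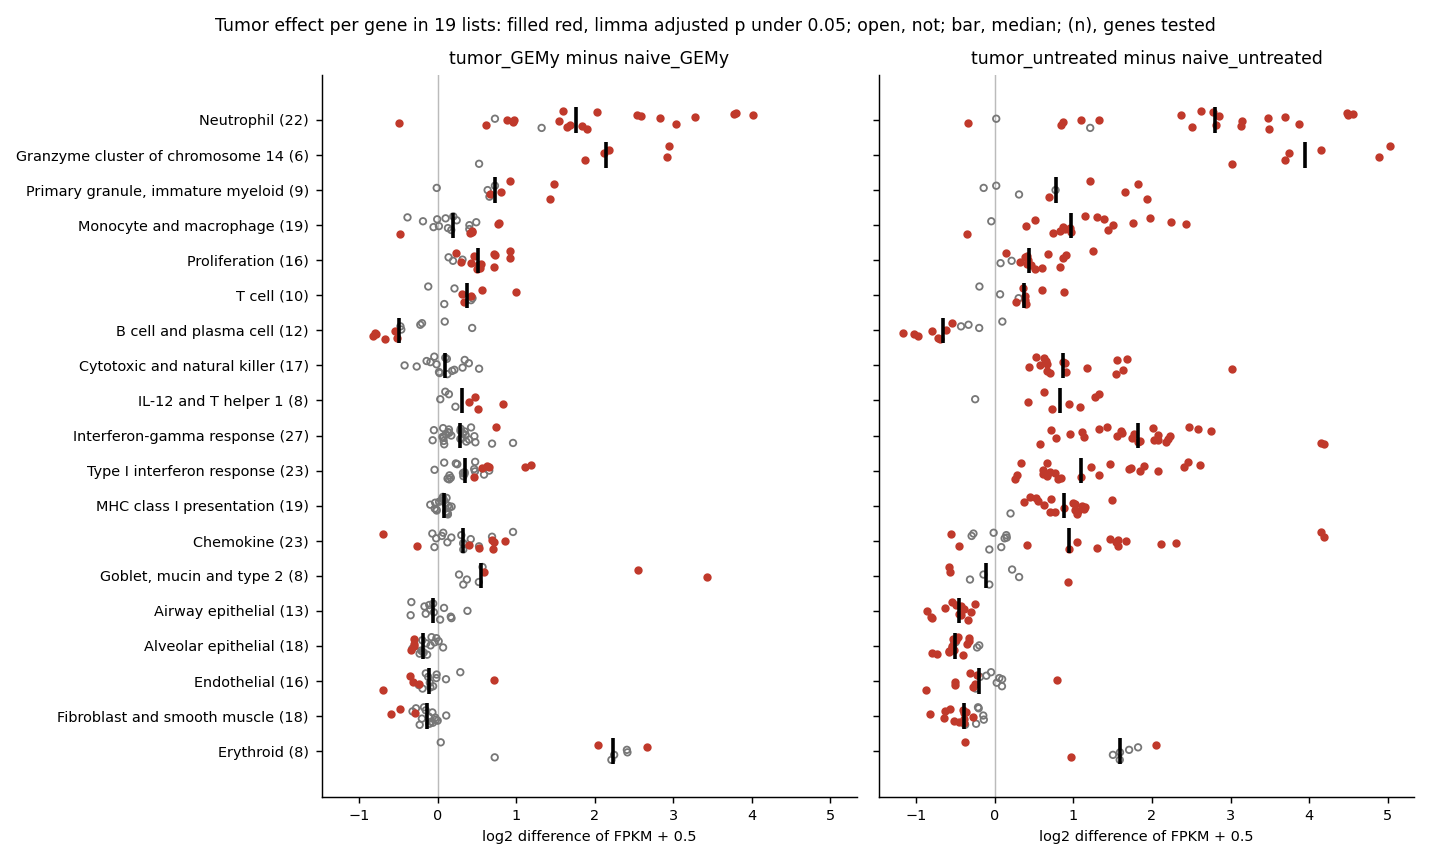
Members of 19 gene lists by their log2 difference between tumor-bearing and tumor-free lungs, in treated and in untreated mice, with filled points for called genes and a bar at the median. The neutrophil list has medians of 1.76 and 2.80, the proliferation list 0.51 and 0.44, and the interferon-gamma list 0.29 and 1.82.

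Some monocyte and macrophage genes rose. In the list of 19 monocyte and macrophage genes 5 were higher and 1 was lower, with a median of 0.20, against 17 higher in untreated lungs, and 11 had a smaller effect in treated lungs. The shares of all genes called higher were 4.03% in treated and 16.9% in untreated lungs. The summed FPKM of the list was 1521 to 1610 in tumor GEMy and 1663 to 1769 in naive GEMy lungs. Fcgr4, an activating Fc receptor, read 6.54, 6.63, 5.42 and 7.72 FPKM in tumor GEMy 1 to 4 and 3.86, 3.51, 2.8 and 4.52 FPKM in naive GEMy 1 to 4 (difference 0.77 ± 0.15, limma adjusted p = 0.00485; interaction -1.67, limma adjusted p = 0.00122). Itgam, the integrin CD11b, rose by 0.78, and the complement subunit genes C1qa, C1qb and C1qc rose by 0.42, 0.43 and 0.43. Neutrophils also express Itgam and Fcgr4, so these 2 rises are not particular to monocytes and macrophages. Apoe, the apolipoprotein, was the 1 member that fell, by 0.48 (limma adjusted p = 0.0187). With the hemoglobin covariate no member was called, and without tumor GEMy 1 and 2 there were 2 higher.

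Among 12 genes of the interleukin-1 family and inflammasome 4 were higher and none lower, with a median of 0.34, and the count was also 4 without tumor GEMy 1 and 2. Il1b, the inflammatory cytokine, read 9.08, 10.1, 6.96 and 13.9 FPKM in tumor GEMy 1 to 4 and 3.22, 2.87, 2.52 and 3.43 FPKM in naive GEMy 1 to 4. The groups were apart, with a difference of 1.55 ± 0.22 (limma adjusted p = 0.000399), about 1.60 below the 3.15 of untreated lungs (limma adjusted p of the interaction = 0.00631). Il1f9, which encodes interleukin-36 gamma, rose by 1.73 (limma adjusted p = 1.26e-05), and the decoy receptor Il1r2 and the sensor Nlrp3 by 0.89 and 0.35. With the hemoglobin covariate 2 members were higher.

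Of 19 genes tied to myeloid immune suppression 8 were higher and none lower, against 15 higher in untreated lungs. Over all genes 4.03% were higher in treated and 16.9% in untreated lungs. The 8 include Trem1, at 1.59, also on the neutrophil list, which reached the minimum level only through tumor-bearing lungs. Cd33, a sialic acid receptor of myeloid cells, read 6.33, 4.01, 3.51 and 4.45 FPKM in tumor GEMy 1 to 4 against 0.947 to 1.46 FPKM (1.49 ± 0.17, limma adjusted p = 8.5e-05). Arg2, the mitochondrial arginase, rose by 0.66 (limma adjusted p = 5.25e-05) and Lilrb4a, an inhibitory receptor, by 1.01 (limma adjusted p = 0.00379). Arg1, the cytosolic arginase of suppressive macrophages, was 0.142 to 0.298 FPKM in tumor GEMy and 0.166 to 0.183 FPKM in naive GEMy lungs (difference 0.10, 95% interval -0.30 to 0.51, limma adjusted p = 0.748). All of these values were under the minimum level, so Arg1 entered the test through untreated lungs alone. Its interaction of -1.15 (limma adjusted p = 0.019, or 0.068 without tumor GEMy 1 and 2) is therefore not given as a result. The count of 8 was 4 without tumor GEMy 1 and 2, 4 with the hemoglobin covariate, and 5 without naive GEMy 1, 2 or 3 or tumor GEMy 1.

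Chemokines that draw monocytes and other leukocytes were among 23 chemokine genes of which 6 were higher and 2 lower. Over all genes tested 4.03% were higher and 9.17% lower, so the count of lower chemokine genes is near the share of all genes. Ccl6, a chemokine of macrophages and neutrophils, read 35.3, 36.3, 41.1 and 45.4 FPKM in tumor GEMy 1 to 4 and 23.6, 23.7, 21.2 and 26.2 FPKM in naive GEMy 1 to 4, without overlap (0.72 ± 0.11, limma adjusted p = 0.000639). The monocyte-attracting Ccl8 and Ccl12 rose by 0.69 and 0.71, and the dendritic cell chemokine Ccl17 by 0.53. Ccl7 and Ccl22, at 0.86 and 0.41 (limma adjusted p = 0.0327 and 0.0335), lost their calls when 1 library was left out: Ccl7 without naive GEMy 1, 2 or 3 or tumor GEMy 2 or 3 (0.0595 to 0.092), and Ccl22 without naive GEMy 1, 2 or 3 or tumor GEMy 2, 3 or 4 (0.0625 to 0.0917). Cxcl14 and Ccl21a, which are made by stromal and lymphatic cells, fell by 0.69 and 0.27. The higher count was 1 with the hemoglobin covariate and 5 without tumor GEMy 1 and 2, where none was lower.

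Some T cell transcripts rose and some B cell transcripts fell. Cd8a, the co-receptor of cytotoxic T cells, read 3.94, 4.46, 5.07 and 3.42 FPKM in tumor GEMy 1 to 4 and 1.54, 1.85, 1.66 and 2.36 FPKM in naive GEMy 1 to 4. The groups did not overlap (1.00 ± 0.23, limma adjusted p = 0.0121), and untreated lungs gave 0.89 (interaction 0.12, limma adjusted p = 0.885). Of 10 T cell genes 5 were higher and none lower with a median of 0.38, namely Cd8a, Cd8b1, Cd4, Cd3g and Cd28. That count was 0 without tumor GEMy 1 and 2 and with the hemoglobin covariate, although the medians were 0.34 and 0.31. Leaving out 1 library gave 1 (naive GEMy 1), 2 (naive GEMy 3) or 3 (naive GEMy 2, tumor GEMy 2 or tumor GEMy 3).

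Of 8 genes of the interleukin-12 and T helper 1 axis 4 were higher and none lower, with a median of 0.31. Ifng, which encodes interferon-gamma, read 1.46, 1.94, 2.3 and 1.34 FPKM in tumor GEMy 1 to 4 and 0.901, 0.551, 0.768 and 0.801 FPKM in naive GEMy 1 to 4. It was higher in every tumor GEMy library (0.84 ± 0.20, limma adjusted p = 0.0146), and untreated lungs gave 0.94 (interaction -0.10, limma adjusted p = 0.883), from 0.0444 ± 0.0136 to 0.602 ± 0.426 FPKM (SD, n = 4 each). The naive untreated level lies far under the 0.5 added before the log2, which understates the rise in untreated lungs. The small interaction therefore does not show that the 2 tumor effects were equal in fold. The receptor genes Il12rb1, Il18rap and Cxcr3 rose by 0.40, 0.47 and 0.51 (limma adjusted p = 0.00519, 0.00867 and 0.00501). The count was 4 without each single library of the 8 and 1 without tumor GEMy 1 and 2 or with the hemoglobin covariate. Without tumor GEMy 1 and 2, Ifng stood at 0.86 and Cd8a at 1.00 but neither passed (limma adjusted p = 0.0745 and 0.0778).

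The interleukin-12 subunit genes Il12a and Il12b lay under the minimum level and differed by -0.39 and 0.61 on the depth-scaled read scale, neither of which passed (limma adjusted p = 0.114 and 0.0761). Foxp3, the regulatory T cell factor, was also read on that scale, at 0.65 (limma adjusted p = 0.0434), and did not pass as FPKM without a minimum level (0.0649). Of 16 regulatory T cell and checkpoint genes 7 were tested, of which 2 were higher and none lower, with a median of 0.13. Il10, a suppressive cytokine, read 0.551, 0.579, 0.774 and 0.5 FPKM in tumor GEMy 1 to 4. In naive GEMy 1 to 4 it read 0.328, 0.198, 0.274 and 0.388 FPKM (0.47 ± 0.07, limma adjusted p = 0.00105). No other group reached the minimum level, so Il10 entered the test through the tumor GEMy libraries alone. Its groups had to lie apart, and its call, 1 of the 2 above, is not given as a result. On the depth-scaled read scale Il10 differed by 0.83 (limma adjusted p = 0.00341). Lag3, an inhibitory receptor of activated T cells, stood at 0.49 (limma adjusted p = 0.0294), and its call was lost without naive GEMy 1, 2 or 3 or tumor GEMy 1 or 2 (adjusted p = 0.0526 to 0.0746) and with the hemoglobin covariate (0.271).

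The B cell list stood below naive GEMy lungs in all 4 tumor GEMy libraries, by -0.64, -0.44, -0.63 and -0.31 in the median over its members. Cd79a, a signalling chain of the B cell receptor, read 9.66, 11.9, 10 and 12.1 FPKM in tumor GEMy 1 to 4 and 20.6, 20.4, 17.8 and 20 FPKM in naive GEMy 1 to 4. The groups were apart (-0.83 ± 0.15, limma adjusted p = 0.00326), and untreated lungs gave -0.98. Of 12 genes 6 were lower and none higher with a median of -0.50, among them also Cd79b, Cd22, Fcer2a and Fcmr, at -0.78, -0.52, -0.80 and -0.55. In untreated lungs 8 were lower. For 8 of the 12 all tumor GEMy libraries lay below all naive GEMy libraries, against 15.1% of all genes. The count of called genes was 4 under median-of-ratios scaling, 2 with the hemoglobin covariate and 1 without tumor GEMy 1 and 2, where the median was -0.46. Jchain, of antibody-secreting cells, stood at 0.44 (95% interval -0.08 to 0.96, limma adjusted p = 0.246).

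Cell division genes rose with the tumor in both settings. Mki67, the nuclear antigen of dividing cells, read 3.99, 3.6, 3.76 and 3.52 FPKM in tumor GEMy 1 to 4 and 1.57, 1.61, 2.08 and 1.71 FPKM in naive GEMy 1 to 4. No values overlapped (0.92 ± 0.13, limma adjusted p = 0.000391), and the untreated effect was 0.87 (interaction 0.05, limma adjusted p = 0.911). Of 16 proliferation genes 13 were higher and none lower, with a median of 0.51, and 14 were higher in untreated lungs with a median of 0.44, while none passed the interaction test. Top2a, Ccna2, Rrm2 and Ube2c rose by 0.71, 0.72, 0.73 and 0.92. The replication genes Pcna, Mcm2 and Mcm5, at 0.14, 0.20 and 0.32, were the 3 that did not pass. Without tumor GEMy 1 and 2 there were 7 higher members, and with the hemoglobin covariate 5, at medians of 0.47 and 0.54. The injected product itself had 59.4 FPKM of Mki67, and its part in the lung values was not tested.

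**Figure D5:**
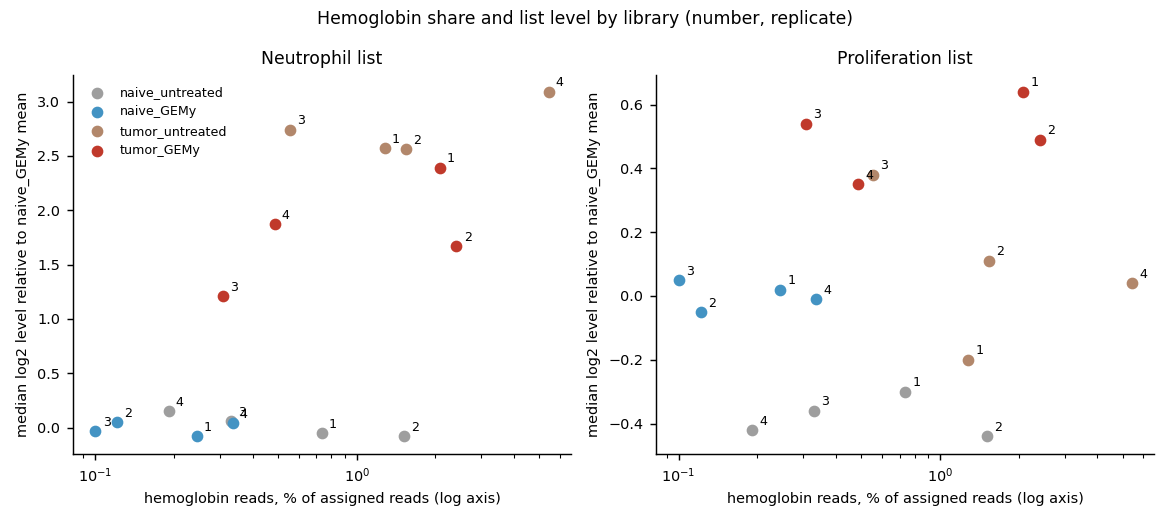
Hemoglobin share of reads on a log axis against the level of the neutrophil list and of the proliferation list, relative to naive GEMy lungs, with 1 point per lung library coloured by group. Tumor GEMy 3, at 0.306% hemoglobin, lies within the naive GEMy range on the horizontal axis and above all naive GEMy libraries on both vertical axes (1.21 and 0.54). Tumor GEMy 1 and 2, at 2.08% and 2.41%, stand at 2.39 and 1.67 for the neutrophil list and at 0.64 and 0.49 for the proliferation list. The part of blood content was not tested.

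Transcripts of basophils also rose. Prss34 and Mcpt8 are proteases of basophils, cells that act in type 2 responses. Prss34 read 7.88, 2.98, 5.1 and 4.17 FPKM in tumor GEMy 1 to 4 and 0.856, 0.521, 0.855 and 0.708 FPKM in naive GEMy 1 to 4, with no overlap (2.10 ± 0.29, limma adjusted p = 0.000399). The untreated effect was 1.07, and the interaction of 1.03 did not pass (limma adjusted p = 0.164). Mcpt8 rose by 1.44 (limma adjusted p = 0.00661), but it reached the minimum level only through tumor-bearing lungs. Of 8 mast cell, basophil and eosinophil genes 3 were higher, these 2 and Hdc, which makes histamine, and the count was also 3 without tumor GEMy 1 and 2 but 1 with the hemoglobin covariate. Prss34 stood at 64.8 FPKM and Mcpt8 at 27.6 FPKM in the product.

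A list of primary granule and immature myeloid genes, among them Mpo, myeloperoxidase, at 166 FPKM in the product, gave 5 higher of 9 tested with a median of 0.73. The largest of the 5 were Pglyrp1 and Cd177, at 1.48 and 1.44. Mature neutrophils also express both, so the count does not speak for immature cells alone. The level of the list relative to naive GEMy lungs was 1.74 in tumor GEMy 1 and 0.27, 0.58 and 0.47 in tumor GEMy 2 to 4. Prtn3 and Ctsg, granule proteases, rose by 0.92 and 0.81 (limma adjusted p = 0.0106 and 0.0317), while Elane, neutrophil elastase, stood at 0.64 (limma adjusted p = 0.185). Mpo was 1.23, 0.367, 0.367 and 0.346 FPKM in tumor GEMy 1 to 4 and 0.0443 to 0.479 FPKM in naive GEMy lungs. The count was 3 without tumor GEMy 1 and 2, 0 with the hemoglobin covariate, 2 without naive GEMy 1, and 3 without naive GEMy 2 or 4. Cd177, a neutrophil surface protein, was 12.7 FPKM in tumor GEMy 1 and 1.53 to 2.04 FPKM in the others, and its call (1.44, limma adjusted p = 0.0452) was lost without tumor GEMy 2 (0.056) or without any 1 of naive GEMy 1 to 4 (0.0772 to 0.0916).

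Calls of erythroid genes rested on single libraries. Hbb-bt, a beta globin whose near-copy Hbb-b2 has the same values in the table, read 669, 721, 90 and 145 FPKM in tumor GEMy 1 to 4 and 59.2, 28.3, 26.8 and 83 FPKM in naive GEMy 1 to 4 (2.66 ± 0.82, limma adjusted p = 0.0459). The groups did not overlap, but the call was lost without any 1 of naive GEMy 1, 2 and 3 or tumor GEMy 1, 2 and 4 (adjusted p = 0.057 to 0.122). Of 8 erythroid genes 2 were higher, 0 without tumor GEMy 1 and 2, and between 0 and 7 with 1 library left out, the 7 being without tumor GEMy 3. The list's summed FPKM was 492 to 3853 in tumor GEMy and 161 to 513 in naive GEMy lungs. Markers of the tumor line's muscle lineage were mostly too low to test. Of 6 myogenic genes with values, among them Myh3, Pax7, Chrna1 and Mymk, only 1 reached the minimum level. That gene read 0.705 to 0.978 FPKM in tumor GEMy and 0.822 to 1.03 FPKM in naive GEMy lungs, and it was not called. Levels of the other myogenic genes are not given here.

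The falls were mostly small. Besides the B cell genes above, the named falls included metabolic, matricellular and clock genes, and ribosomal protein genes, left aside in the naming, are given at the end. Cyp1a1, a cytochrome P450 induced through the aryl hydrocarbon receptor (chr9:57687928-57703824, plus strand), read 0.446, 0.694, 0.398 and 0.742 FPKM in tumor GEMy 1 to 4 and 2.32, 2.08, 1.92 and 2.02 FPKM in naive GEMy 1 to 4. It gave the largest named fall (-1.28 ± 0.18, limma adjusted p = 0.000405), with -1.29 in untreated lungs. Inmt, a methyltransferase abundant in lung, read 166, 133, 166 and 139 FPKM against 285, 256, 244 and 243 FPKM (-0.77 ± 0.15, limma adjusted p = 0.00539). In both genes every tumor GEMy library lay below every naive GEMy one. Ankrd63, Hic1 and Sp5 fell by 0.90, 0.89 and 0.77, and Ly6d by 0.80. The matricellular gene Ccn1 stood at -0.83 (limma adjusted p = 0.0317), a call lost under median-of-ratios scaling (0.0572) and without naive GEMy 1, 2 or 3 or tumor GEMy 1 or 4 (0.0644 to 0.095).

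Of 11 clock genes 1 was higher and 2 were lower, where 4.03% and 9.17% of all genes tested were. With so few calls these counts are not read as a result about clock genes as a set. Dbp, a clock-controlled transcription factor, read 3.9, 5.5, 3.89 and 5.26 FPKM in tumor GEMy 1 to 4 and 12.2, 7.18, 15.7 and 10.8 FPKM in naive GEMy 1 to 4 (-1.19 ± 0.25, limma adjusted p = 0.00697), and untreated lungs gave -0.33 (interaction -0.85, limma adjusted p = 0.177). The Dbp call was lost without tumor GEMy 1 and 2 (-1.20, adjusted p = 0.0504). Nr1d1, the clock repressor REV-ERB-alpha, fell by 0.85 (limma adjusted p = 0.0118). Per1, a clock gene that glucocorticoids also induce, read 15.2, 13.5, 10.8 and 9.27 FPKM against 5.41, 4.75, 6.41 and 6.79 FPKM (0.99 ± 0.17, limma adjusted p = 0.00233). None of the 3 overlapped between groups. The collection hour is not given. Nr1d1 was not called without tumor GEMy 1 and 2 either (adjusted p = 0.0808), and with the hemoglobin covariate none of the 3 passed (adjusted p = 0.123 for Dbp, 0.234 for Nr1d1 and 0.0662 for Per1). Of 13 glucocorticoid and stress genes 4 were higher, among them Tsc22d3 and Cdkn1a at 0.95 and 0.88, and 1 was higher without tumor GEMy 1 and 2 and 0 with the hemoglobin covariate.

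Some lung structural genes passed the test, all but 1 of them lower. Over all genes tested 9.17% were lower. Of 18 alveolar epithelial genes 4 were lower (Sftpc, Etv5, Nkx2-1 and Lpcat1, at -0.30, -0.33, -0.30 and -0.30), with a median of -0.18, against 13 lower in untreated lungs. None of 13 airway epithelial genes was called by limma, at a median of -0.06, while all 13 were lower in untreated lungs with a median of -0.45, and 1 of the 13 passed the interaction test. Of 18 fibroblast and smooth muscle genes 3 were lower, among them Pdgfrb, the platelet-derived growth factor receptor, at -0.48 (limma adjusted p = 0.00248) and Mfap4 at -0.59. Of 16 endothelial genes 4 were lower, with Aplnr, the apelin receptor, at -0.70, and Lyve1, the lymphatic hyaluronan receptor, was higher at 0.71 (limma adjusted p = 0.0149, or 0.0546 without naive GEMy 1). Without tumor GEMy 1 and 2 none of the alveolar or endothelial genes was called and 1 fibroblast gene was, and with the hemoglobin covariate none of these 3 lists had a lower member. Leaving out 1 library also moved these counts of lower genes: the alveolar count was 2 without naive GEMy 1 or 2 or tumor GEMy 1, 2 or 4, the fibroblast count 1 without naive GEMy 1 or 3 or tumor GEMy 1 or 2, and the endothelial count 1 or 2 without naive GEMy 1, 2 or 3 or tumor GEMy 1, 2 or 3.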

How the data were processed

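RNA-seq libraries of 16 lungs and 1 cell product were analysed from 1 table of FPKM values for 18262 genes deposited by the authors. STAR 2.7.3a, Partek and the build mm10 are listed, per the submitters' processing notes; their roles, the annotation and the counting of shared or antisense reads are not given in the sources used here. From the deposited values, FPKM was found to be scaled by genomic span, and multiplying by span gave read shares that summed to 1000000 in each library (RPM) and 86.7% to 88.5% of values within 0.02 of a whole read. Those reads gave the depths. The 10284 genes that reached 0.5 FPKM in 4 or more of the 16 lungs were fitted as log2(FPKM + 0.5) with limma 3.58.1 in R 4.3.3, with trend and robust moderation, 4 group means, 2-sided tests and Benjamini-Hochberg adjustment over all genes at 0.05. Python 3.11.15 and matplotlib 3.10.9 made tables and figures. Genes under the minimum were read from the same fit on log2 RPM, the depth-scaled read scale (15422 genes). On simulated data 89% of 100 genes planted at 1.5-fold and 99% of 100 at 2-fold were recovered in the tumor GEMy against naive GEMy contrast, with 5 false calls among 10169 genes. Planted genes had a mean log2(FPKM + 0.5) above 0.5, and noise was normal and independent around 1 mean per gene. Differences in hemoglobin or of single libraries were not simulated, so these rates do not cover them or weakly expressed genes.

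Named genes were the 12 largest rises and the 12 largest falls among called genes whose libraries did not overlap (predicted genes, pseudogenes, receptor segments, small RNAs, histones and ribosomal proteins left aside), the 2 called members with the largest difference in each list of 5 or more tested genes, the 5 largest interactions on each side and 17 fixed genes. Other genes named in the text are list members chosen after their values were seen. The members and all lists were chosen with earlier results of these data known, so list counts and medians are descriptions without a test. Il36g was matched as Il1f9 and Ear11 as Rnase2a. A few named genes are not reported here. Some list genes, among them Myod1, Myog, Myf5, Chrng and Trac, were not analysed here, nor were mitochondrially encoded genes. Promoter sequences are from RefSeq (GRCm38.p6), where 14271 genes of the table matched. Alternatives were other pseudocounts, minimum levels, scalings, moderation, weights, a hemoglobin covariate, a replicate block, the 8 libraries alone and leaving out each library.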

Additional observations from a re-analysis of the deposited data

Results flagged for a closer look

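Among 162 groups of 4 libraries checked over the named genes, 13 had 1 library far from the other 3, where chance flags about 1 in 20. In 11 of them that library was tumor GEMy 1. It was highest for S100a8 (1046 FPKM against 362 to 419), Retnlg (205 against 65.9 to 71.8), Mmp8 (27.3 against 6.97 to 8.27), Ly6g (10.5 against 2.79 to 3.31), Slfn4 (12.9 against 7.04 to 7.8), Pglyrp1 (19.9 against 6.75 to 7.76), Cd177 (12.7 against 1.53 to 2.04), Lcn2 (132 against 53.7 to 59.2) and Lyve1 (43 against 27.4 to 27.8). It was lowest for Ccl17 (7.56 against 9.4 to 9.71) and Etv5 (3.21 against 3.64 to 3.71). Naive GEMy 2 was lowest for Cxcl9 (3.96 against 5.72 to 5.9 FPKM), and tumor GEMy 4 was lowest for Rasd1 (2.63 against 3.98 to 4.22 FPKM).

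For 23 named genes the tumor effect differed between treated and untreated lungs by the interaction test. It was higher in treated lungs for Clca1 (3.13 on the log2 scale), Retnla (2.33), Tff2 (1.16), Muc5b (1.16) and Rasd1 (1.03). Chemokine, killing and interferon genes were lower: Cxcl10 (-3.49), Cxcl9 (-3.18), Gzmb (-2.49), Serpina3f (-2.41), Tgtp1 (-2.29), Gzmg (-2.09), Gzmd (-1.98), Cd274 (-1.77), Prf1 (-1.56), Rsad2 (-1.42) and Oas3 (-1.30). Myeloid genes were also lower: Fcgr4 (-1.67), Il1b (-1.60), Slfn4 (-1.40), Arg1 (-1.15), Trem1 (-1.03), Itgam (-0.98) and Ccl17 (-0.77). Arg1 entered the test through untreated lungs alone, so its interaction is not given as a result. Besides Clca1, the Tff2 interaction was lost when 1 library was left out (without naive untreated 1 or 2, naive GEMy 1 or 4, tumor untreated 2 or 3, or tumor GEMy 4, adjusted p = 0.0504 to 0.0613) and without a minimum level (0.0533).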

How the results depend on the processing

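No value of a named gene that was called changed sign under the alternatives run. The balance of calls did turn, from more lower to more higher genes, under median-of-ratios scaling, with the hemoglobin covariate and at a 2-fold minimum. Counts of higher, lower and interaction genes (414, 943 and 644) were 67, 2 and 152 at a 2-fold minimum, a stricter rule by construction. With array weights they were 751, 1982 and 1881. The lower count was 396 with median-of-ratios scaling. With the hemoglobin covariate 101 higher and 43 lower genes were called, and without tumor GEMy 1 and 2, which leaves 2 libraries in that group, 168 and 210. Over single libraries left out, higher genes ranged from 270 to 389, lower genes from 369 to 888 and interaction genes from 383 to 1256. The cause was not tested in any of these. The hemoglobin difference of 1.12 percentage points ranged from 0.755 to 1.46, the latter without tumor GEMy 3 (exact permutation p = 0.0286). Other pseudocounts, minimum levels, plain moderation, the depth-scaled read scale, quantile normalization and the 8 libraries alone kept every count within 1.5 times.

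Of 69 named genes called, 40 calls were lost with the hemoglobin covariate, 29 without tumor GEMy 1 and 2, and 7 to 17 with 1 library left out. Same-numbered libraries of the treated groups deviated together with correlations of 0.238, 0.030, 0.342 and 0.346, and 3 of 4 correlated best with their own number, a hint of pairing from the data and not the design. Since 1 pair lay below 0.1, the numbers were not taken to pair the libraries. A replicate block gave 466, 1121 and 799 genes and lost the calls of Cd177 and Egr1.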

Other observations

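Ribosomal protein genes, picked by symbol after their values were seen, fell in treated lungs: 41 of 82 were lower and none higher, with a median of -0.32. In untreated lungs none of the 82 was called by limma, with a median of -0.02, and 5 had a lower effect in treated lungs by the interaction test (median over the 82 of -0.30). Under median-of-ratios scaling 27 were lower, without tumor GEMy 1 and 2 there were 12, and with the hemoglobin covariate 0. Their part in the scaling of other genes was not tested.

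A tumor effect of opposite sign in the 2 settings, called in each and with a called interaction, was found for 8 genes. C2, a complement component, was 0.22 in treated and -0.23 in untreated lungs, Chac1, a stress-induced glutathione-degrading enzyme, 0.31 and -0.26, and Muc5b 0.59 and -0.57. The reverse held for Rsrp1 (-0.47 and 0.78), Lyl1, a hematopoietic transcription factor (-0.45 and 0.35), Gm20605 (-0.43 and 0.34), Zeb2os (-0.27 and 0.49) and Sft2d1 (-0.19 and 0.13).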
